A study of Mus musculus with 6 samples.

Results

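The genes described here are the mouse components of the spliceosome, the ribonucleoprotein machine that removes introns from pre-mRNA. They were the genes that the deposited table annotates with the KEGG spliceosome pathway, without the heat shock genes whose symbols start with Hsp, and were selected on measured expression, with 1 FPKM or more (fragments per kilobase of transcript, scaled by library size) in 3 libraries or more. Of 132 pathway genes, 5 were Hsp genes, and 122 of the remaining 127 passed the minimum. These 122 genes were among 12766 that passed the same minimum in a table of 55401 genes. Messenger RNA came from cultures labelled as hepatic stellate cells, the liver pericytes that turn into matrix-producing myofibroblasts in culture. The cells were isolated from C57BL/6J mice that were heterozygous for S100a16 (S100a16+/-, 3 libraries, although the sample titles say S100KD) or wild type (WT, 3 libraries). Cells of both genotypes were grown for 7 days in medium with fetal bovine serum. The comparison asks which genes differ when S100a16, an EF-hand calcium-binding protein, is reduced. How many animals or isolations the libraries represent was not stated in the labels, so the p-values reflect only the spread among these 6 samples.

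Introns are recognised when the U1 particle pairs with the 5′ splice site and the U2 particle with the branch point, after which the U4/U6.U5 tri-snRNP joins and is rearranged by RNA helicases into the catalytic form. Rings of Sm proteins, or of LSm proteins on U6, hold the small nuclear RNAs. SR proteins bind exonic sequences and recruit U1 and U2 components, hnRNP proteins often act against them, and the exon junction complex and TREX mark and export the spliced product. SR genes also control their own output through exons with premature stop codons whose transcripts are removed by nonsense-mediated decay.

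Library totals ran from 61979103 to 76291481 counts. S100a16 had an FPKM of 18.0, 17.7 and 30.0 in S100a16+/- replicates 1 to 3, against 57.7, 58.8 and 56.8 in WT. S100a16+/- replicate 3 stood apart, with a Pearson r of log2(FPKM + 1) across genes of 0.929 to 0.930 with the other S100a16+/- libraries, which had 0.987 with each other. It alone held the X-linked Xist (32.2 FPKM) and lacked the Y-linked Ddx3y (0.0102 FPKM). The other 5 libraries had Ddx3y at 12.1 to 15.8 FPKM and Xist at 0.00809 to 0.0323 FPKM. Sex, as read from these transcripts, cannot be told apart from the other differences of replicate 3. The labelled cell type was present in the other 5 libraries by Acta2, the smooth-muscle actin of myofibroblasts, at 388 to 489 FPKM, but replicate 3 had 48.0 FPKM. All libraries also held macrophage and endothelial transcripts, such as Lyz2 at 4377 to 10057 FPKM and Cdh5 at 283 to 930 FPKM. A macrophage marker list summed to 13330 to 18342 FPKM in S100a16+/- libraries and 10439 to 10998 FPKM in WT libraries. An endothelial list summed to 883 to 2035 and 1677 to 1838 FPKM, and a stellate and myofibroblast list to 173 to 1216 and 1018 to 1141 FPKM. The values below are those of a mixture of cells. In bulk RNA, fewer cells of a type and less RNA per cell cannot be told apart. Counts of called spliceosome genes are therefore given with and without replicate 3.

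Among the 122 spliceosome genes, 4 fell and 0 rose in S100a16+/- libraries. All 4 were SR genes, Srsf2, Srsf3, Srsf5 and Srsf6, and their levels were 62.1% to 76.2% of the WT means. The test was edgeR's quasi-likelihood test on counts at a Benjamini-Hochberg adjusted p under 0.05 over all 12766 genes. The 4 falls are 3.28% of the spliceosome genes, against 1.61% of all genes tested that were called lower, and 0 rises stand against 2.85% called higher. At an unadjusted p under 0.05, 19 spliceosome genes were lower and 1 was higher, against 9.54% lower and 12.4% higher of all genes tested. A DESeq2 fit called 12 lower and 0 higher, where it called 5.98% of all genes lower and 8.81% higher. The 4 calls needed all 6 libraries or the removal of replicate 3. When any one of the other 5 libraries was left out, 0 spliceosome genes were called by edgeR, and the calls over all genes, in both directions together, dropped to between 32 and 80. The log2 changes of the 4 genes in those 5 fits stayed between -0.66 and -0.33.

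The promoters of these 4 genes, and of Srsf9 as an SR gene with a log2 change of 0.00, are printed here because they are the regulatory sequence nearest to the finding. Each window runs from 250 bases before to 50 bases after the RefSeq transcript start in GRCm38.p6, 5′ to 3′ on the gene's own strand. Capitals mark matches, on either strand, to the GC box GGGCGG, the CCAAT box CCAAT, the ETS core CGGAAG, the E-box CACGTG, the cyclic AMP response element TGACGTCA and the TATA box TATAAA. Adjoining or overlapping matches form one run of capitals. The windows are Srsf2 at chr11:116853045-116853344 on the minus strand, Srsf3 at chr17:29032410-29032709, Srsf5 at chr12:80945249-80945548, Srsf6 at chr2:162931258-162931557 and Srsf9 at chr5:115326927-115327226, the last 4 on the plus strand.
Srsf2: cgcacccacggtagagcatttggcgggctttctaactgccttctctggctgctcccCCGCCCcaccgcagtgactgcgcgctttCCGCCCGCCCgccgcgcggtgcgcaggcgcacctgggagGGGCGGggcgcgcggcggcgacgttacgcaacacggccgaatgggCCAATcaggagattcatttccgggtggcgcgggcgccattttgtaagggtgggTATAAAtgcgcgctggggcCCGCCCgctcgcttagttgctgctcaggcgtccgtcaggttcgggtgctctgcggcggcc
Srsf3: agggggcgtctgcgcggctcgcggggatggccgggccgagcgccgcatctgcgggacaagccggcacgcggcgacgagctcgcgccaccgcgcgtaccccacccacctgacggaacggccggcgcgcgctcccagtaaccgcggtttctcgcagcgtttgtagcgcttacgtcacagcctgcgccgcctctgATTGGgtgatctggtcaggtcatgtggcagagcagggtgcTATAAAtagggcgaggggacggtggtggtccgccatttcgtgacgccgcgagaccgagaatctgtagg
Srsf5: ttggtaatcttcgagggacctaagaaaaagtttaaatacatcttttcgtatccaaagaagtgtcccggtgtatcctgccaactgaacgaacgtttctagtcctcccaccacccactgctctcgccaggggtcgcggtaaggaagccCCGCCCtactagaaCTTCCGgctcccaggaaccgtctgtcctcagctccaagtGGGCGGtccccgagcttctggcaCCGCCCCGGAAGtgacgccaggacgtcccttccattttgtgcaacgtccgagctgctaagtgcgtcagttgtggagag
Srsf6: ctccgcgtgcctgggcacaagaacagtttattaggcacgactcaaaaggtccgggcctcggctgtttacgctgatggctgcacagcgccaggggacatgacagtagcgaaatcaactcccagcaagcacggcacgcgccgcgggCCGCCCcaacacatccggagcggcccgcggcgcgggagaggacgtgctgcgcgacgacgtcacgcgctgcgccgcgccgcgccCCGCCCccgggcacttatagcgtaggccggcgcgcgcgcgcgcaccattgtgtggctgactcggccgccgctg
Srsf9: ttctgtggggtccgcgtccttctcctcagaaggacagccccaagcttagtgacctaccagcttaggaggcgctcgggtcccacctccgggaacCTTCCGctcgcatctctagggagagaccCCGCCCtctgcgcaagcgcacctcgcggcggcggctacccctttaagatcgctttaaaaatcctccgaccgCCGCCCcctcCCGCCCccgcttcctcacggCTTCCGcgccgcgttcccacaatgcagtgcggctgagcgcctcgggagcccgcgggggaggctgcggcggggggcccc

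The Srsf2 window held 5 GC boxes, 1 CCAAT box and 1 TATA box, and the Srsf3 window held 1 CCAAT box and 1 TATA box. The Srsf5 window held 3 GC boxes and 2 ETS cores, the Srsf6 window 2 GC boxes, and the Srsf9 window 3 GC boxes and 2 ETS cores. No motif was in all 4 windows of the genes that fell, and the Srsf5 and Srsf9 windows held the same motifs in the same numbers. Their GC content was 69.3%, 68.3%, 56.0%, 70.0% and 69.0% for Srsf2, Srsf3, Srsf5, Srsf6 and Srsf9, against a median of 52.7% over all windows. RefSeq windows were found for 94 of the 122 spliceosome genes, 114 windows in all. The ETS core was in 60.5% of these 114 windows, in 31.2% of the 11546 windows of all genes tested and in 16.9% of all 32851 windows. The GC box was in 61.4% of the spliceosome windows, 63.1% of the windows of genes tested and 35.7% of all windows. For the CCAAT box the shares were 43.0%, 37.3% and 37.4%, for the E-box 8.77%, 10.2% and 7.15%, for the cyclic AMP response element 7.02%, 2.88% and 1.79%, and for the TATA box 9.65%, 7.12% and 13.6%. These are counts of letters in a window and were not tested for binding.

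Srsf5 (ENSMUSG00000021134, chromosome 12, 80945504 to 80950507, plus strand), which encodes the splicing activator SRp40, had the largest fall of the 4. Its FPKM was 29.3, 31.8 and 37.3 in S100a16+/- libraries, against 53.1, 54.0 and 51.3 in WT libraries. The groups did not overlap, and replicate 3 was the closest of the S100a16+/- libraries to WT. The means were 32.8 ± 4.11 and 52.8 ± 1.39 FPKM (SD, n = 3 each), and the log2 change was -0.64 with an SE of 0.09 (edgeR adjusted p = 0.0284). The near-identical copy Gm12966 on chromosome 4 carried 6.82% as many counts as Srsf5. It had 615, 586 and 632 counts in S100a16+/- libraries, against 1250, 1182 and 1160 in WT libraries, a log2 change of -0.84, so reads assigned to the copy moved the same way as those assigned to Srsf5.

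Srsf3 (ENSMUSG00000071172, chromosome 17, 29032628 to 29043373, plus strand) encodes the smallest SR protein, which acts in splicing, polyadenylation site choice and mRNA export. Its FPKM was 11.2, 11.1 and 10.7 in S100a16+/- libraries, against 15.0, 14.9 and 14.5 in WT libraries. All 6 values lay within a narrow band for each genotype, with means of 11.0 ± 0.259 and 14.8 ± 0.283 FPKM (SD, n = 3 each). The log2 change was -0.38 with an SE of 0.06 (edgeR adjusted p = 0.0284).

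Srsf6 (ENSMUSG00000016921, chromosome 2, 162931528 to 162937121, plus strand), the SRp55 gene, had 28.1, 27.8 and 28.3 FPKM in S100a16+/- libraries, against 37.0, 37.1 and 37.9 FPKM in WT libraries. Here too replicate 3 sat with the other S100a16+/- libraries. The log2 change was -0.36 with an SE of 0.05 (edgeR adjusted p = 0.0251).

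Srsf2 (ENSMUSG00000034120, chromosome 11, 116849901 to 116853094, minus strand) encodes SC35, an SR protein that acts in splicing and in the release of paused RNA polymerase. Its FPKM was 40.2, 40.1 and 42.7 in S100a16+/- libraries, against 53.3, 55.1 and 52.9 in WT libraries. The log2 change was -0.34 with an SE of 0.05 (edgeR adjusted p = 0.0314). Mfsd11 overlaps Srsf2 on the other strand, with 29.2% as many counts, and its log2 change was 0.18, in the opposite direction. The sources used here do not say whether counting used the strand.

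The remaining 7 SR and Tra2 genes were not called over the 6 libraries. Srsf4 had 6.35, 7.86 and 6.93 FPKM in S100a16+/- libraries, against 9.56, 10.6 and 11.9 FPKM in WT libraries. The groups did not overlap, but the WT libraries spread more widely, relative to their mean, than for the called genes, and at a log2 change of -0.55 the gene missed the threshold (edgeR adjusted p = 0.0696). The overlapping genes Gm12992 and A930004J17Rik make its count uncertain, with 47.8% and 17.9% as many counts. Srsf7, a close relative of Srsf3, was at -0.18 on the log2 scale (edgeR adjusted p = 0.304), and Srsf10 at -0.13. Srsf1, the founding SR gene, had 14.2, 11.6 and 8.21 FPKM in S100a16+/- libraries, against 13.9, 10.7 and 9.92 FPKM in WT libraries, so that the spread within each genotype was wider than the gap between them. Srsf9 had 24.5, 24.1 and 23.9 FPKM in S100a16+/- libraries, against 24.8, 25.3 and 24.9 FPKM in WT libraries. Its FPKM values were slightly lower in S100a16+/- without overlap, and scaling of the counts by TMM (edgeR's trimmed mean of M values) brought the groups to overlap with a log2 change of 0.00. The SR partners Tra2a and Tra2b had log2 changes of 0.08 and -0.06.

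**Figure D1:**
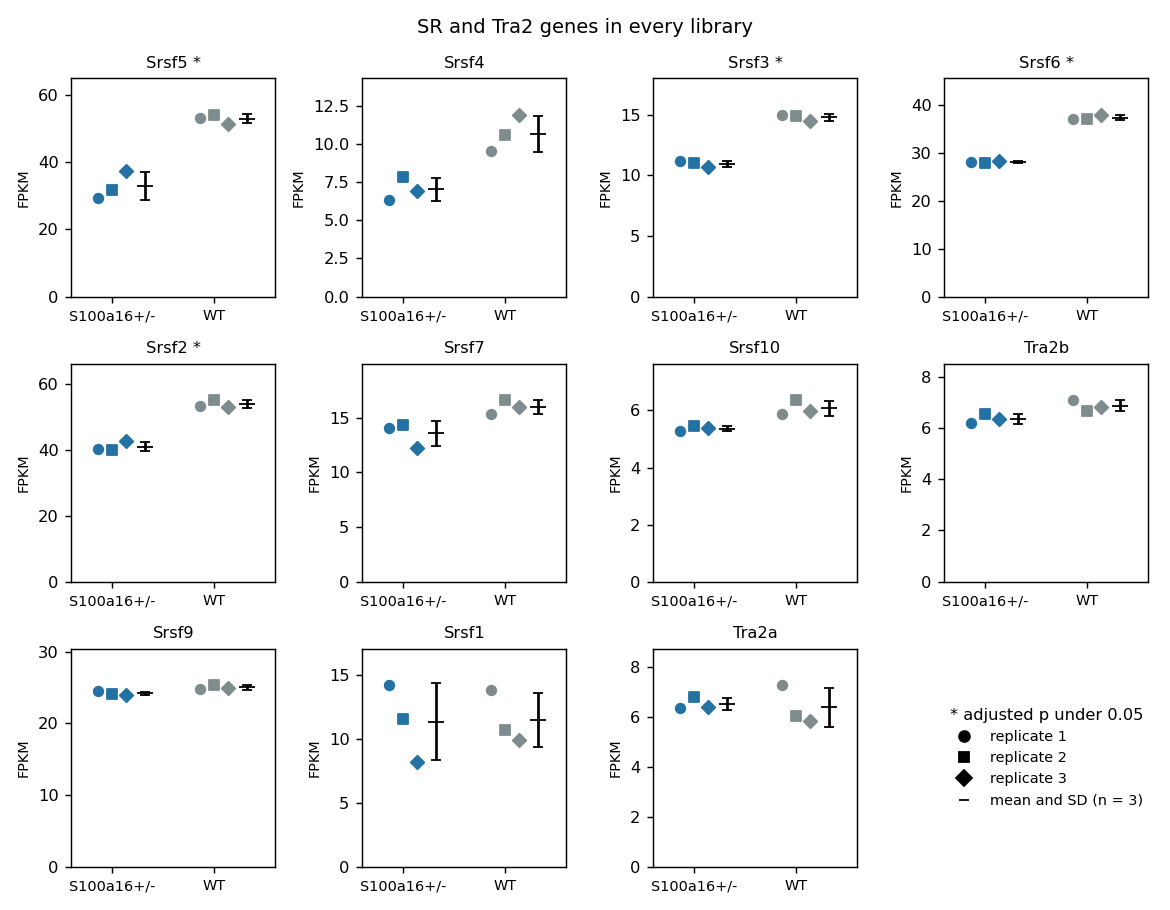
FPKM of the 11 SR and Tra2 genes in every library, one panel a gene, with S100a16+/- left and WT right; shapes mark the replicate, black bars the mean and SD of 3 libraries, and an asterisk an edgeR adjusted p under 0.05. In Srsf5, Srsf3, Srsf6 and Srsf2 every S100a16+/- library lies below every WT library, and in Srsf1 the ranges of both genotypes overlap.

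Summed over the 11 SR and Tra2 genes, FPKM was 186, 187 and 188 in S100a16+/- libraries, against 242, 243 and 238 in WT libraries, with means of 187 ± 1.40 and 241 ± 2.85 (SD, n = 3 each). The 4 called genes made up 113 ± 5.45 of the S100a16+/- sum and 159 ± 2.25 of the WT sum. The sum over the 11 genes is nearly the same in replicate 3 as in replicates 1 and 2, but its parts are not. The 4 called genes summed to 109, 111 and 119 FPKM in S100a16+/- replicates 1 to 3, while Srsf1 had 14.2, 11.6 and 8.21 FPKM. Of the 11 genes, 10 have a transcript typed as nonsense-mediated decay in the deposited annotation, against 47 of all 122 spliceosome genes. The gene-level values do not separate such transcripts from coding ones.

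Over all 122 genes the changes were small. The median log2 change was -0.07, against 0.00 over all genes tested, and 88 (72.1%) were below 0, against 49.8% of all genes tested. The median size of the log2 change, whatever its sign, was 0.104, against 0.182 over all genes tested and 0.153 over 3754 genes with a mean FPKM in the same interquartile range. The summed FPKM of the 122 genes was 1979 ± 26.2 in S100a16+/- libraries and 2208 ± 29.2 in WT libraries (SD, n = 3 each). Without the SR and Tra2 genes it was 1792 ± 27.4 and 1967 ± 31.5.

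Each S100a16+/- library showed the shift. The median log2 ratio of TMM-scaled CPM (counts scaled to a common library size) to the WT mean was -0.08, -0.07 and -0.11 in S100a16+/- replicates 1 to 3, against -0.01, -0.01 and 0.01 in WT replicates 1 to 3. In FPKM, 81, 77 and 77 of the 122 genes lay below all WT libraries in S100a16+/- replicates 1 to 3, which is 66.4%, 63.1% and 63.1%. The shares of all genes tested that did so were 43.9%, 44.8% and 40.8%. FPKM was lower in all 3 S100a16+/- libraries than in any WT library for 51 of the 122 genes (41.8%, against 18.9% of all genes tested) and higher for 1, Dhx38 (0.820%, against 12.5%). FPKM is scaled by library size, which placed the median gene 0.05 lower on the log2 scale in S100a16+/- libraries. On TMM-scaled CPM, 37 genes were lower without overlap (30.3%, against 14.4% of all genes tested) and 4 were higher (3.28%, against 15.8%). The 4 were Dhx38, Aqr, Prpf3 and Hnrnpu.

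**Figure D2:**
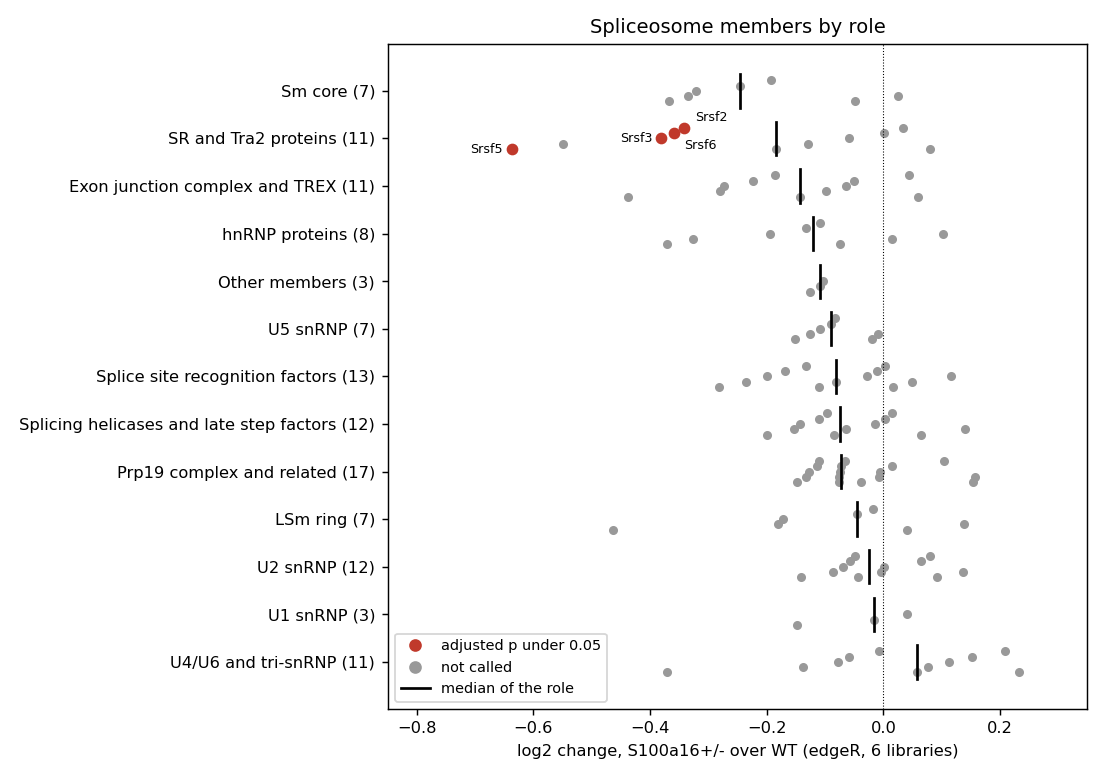
Log2 change of each of the 122 genes, S100a16+/- over WT, by role, with the number of genes in parentheses and a black bar at the median of each role. The SR and Tra2 row holds all 4 called genes, and the medians run from -0.25 for the Sm core to 0.06 for the U4/U6 and tri-snRNP genes.

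The Sm core, the ring shared by the U1, U2, U4 and U5 particles, had the lowest median log2 change of the 13 roles, -0.25. Of its 7 genes, 0 were called and 3 had an unadjusted p under 0.05. At that unadjusted threshold, 9.54% of all genes tested were lower and 12.4% higher. Snrpf had 20.4, 19.6 and 21.5 FPKM in S100a16+/- libraries, against 26.2, 26.8 and 27.3 FPKM in WT libraries. The groups did not overlap, and the log2 change was -0.33 (edgeR adjusted p = 0.0635). Snrpd1, another ring subunit, was at -0.25 on the log2 scale (edgeR adjusted p = 0.125). Snrpb, the most abundant Sm gene, had 52.5, 48.6 and 42.6 FPKM in S100a16+/- libraries, against 48.0, 47.5 and 51.1 FPKM in WT libraries, which overlap. Snrpn, its imprinted relative and not in the pathway annotation, had 4.96, 4.34 and 3.52 FPKM in S100a16+/- libraries, against 3.31, 3.54 and 3.48 FPKM in WT libraries, which also overlap.

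The LSm ring, which caps the end of U6, had a median log2 change of -0.05 over 7 genes. Lsm6 had 4.29, 3.81 and 4.08 FPKM in S100a16+/- libraries, against 4.80, 4.74 and 4.78 FPKM in WT libraries, with a log2 change of -0.18. Lsm2 had a log2 change of 0.14. Lsm5, with 1.51, 4.06 and 1.42 FPKM in S100a16+/- libraries, had the widest spread within that genotype of all 122 genes, a ratio of 2.85 between its highest and lowest library.

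The U1 genes Snrpa and Snrpc, whose proteins bind a U1 stem-loop and support pairing with the 5′ splice site, had log2 changes of -0.15 and 0.04, and all 3 U1 genes overlapped between genotypes. Among 12 U2 genes the median was -0.02. Sf3b1, the subunit that holds the branch point, had 19.0, 21.1 and 22.0 FPKM in S100a16+/- libraries, against 24.9, 21.9 and 24.1 FPKM in WT libraries, which overlap. Sf3b6, which contacts the branch point, had a log2 change of 0.09. Counts of Snrpa are uncertain, since BC024978 overlaps it on the other strand with 22.2% as many counts.

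All 7 U5 genes had a log2 change below 0, with a median of -0.09 and 0 calls. Prpf8, the scaffold of the catalytic centre, had 52.3, 51.2 and 49.3 FPKM in S100a16+/- libraries, against 56.3, 56.4 and 58.1 FPKM in WT libraries. The groups did not overlap, but the log2 change was only -0.11 (edgeR adjusted p = 0.393). The WD40 protein gene Snrnp40 had a log2 change of -0.13. The U4/U6 and tri-snRNP genes were the only role with a median above 0, at 0.06 over 11 genes, and at 0.00188 with library totals in place of TMM. Prpf31, which bridges U4/U6 to U5, had a log2 change of 0.21, and Sart1, which helps hold the tri-snRNP together, of -0.14.

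The Prp19 complex and its partners, which stabilise the activated spliceosome, had a median of -0.07 over 17 genes. Prpf19, the ubiquitin ligase of the complex, had 14.6, 14.1 and 13.4 FPKM in S100a16+/- libraries, against 15.4, 16.8 and 16.2 FPKM in WT libraries, and Xab2 had a log2 change of -0.11. Among 12 helicases and late step factors the median was also -0.07. Ddx5, a DEAD-box helicase, had 100.2, 101 and 109 FPKM in S100a16+/- libraries, against 121, 118 and 130 FPKM in WT libraries. The groups did not overlap, and the log2 change was -0.20 (edgeR adjusted p = 0.192). Dhx38, which remodels the spliceosome between its catalytic steps, had 20.6, 20.5 and 19.5 FPKM in S100a16+/- libraries, against 19.0, 18.8 and 19.1 FPKM in WT libraries, with a log2 change of 0.14 (edgeR adjusted p = 0.223).

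Exon junction complex and TREX genes had a median of -0.14 over 11 genes, with 0 called and 3 at an unadjusted p under 0.05. At that unadjusted threshold, 9.54% of all genes tested were lower and 12.4% higher. Alyref, the adaptor that hands spliced mRNA to the export receptor, had 7.36, 6.85 and 6.90 FPKM in S100a16+/- libraries, against 9.03, 8.92 and 8.48 FPKM in WT libraries, with a log2 change of -0.27 (edgeR adjusted p = 0.0946). Thoc3, a THO subunit, had a log2 change of -0.22. The core pair Rbm8a and Eif4a3 had log2 changes of -0.14 and -0.10. Of the near-identical proteins Magoh and Magohb, the abundant Magoh averaged 23.9 ± 0.632 FPKM in S100a16+/- libraries and 28.1 ± 1.20 FPKM in WT libraries (SD, n = 3 each), without overlap. Magohb averaged 2.62 ± 0.374 and 2.60 ± 0.329 FPKM.

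Splice site recognition factors had a median of -0.08 over 13 genes. U2af1, which reads the AG of the 3′ splice site, had 14.9, 13.3 and 15.8 FPKM in S100a16+/- libraries, against 17.4, 17.8 and 17.1 FPKM in WT libraries. The groups did not overlap, and the log2 change was -0.20 (edgeR adjusted p = 0.198). Its relative U2af1l4 averaged 2.51 ± 0.320 FPKM in S100a16+/- libraries and 2.58 ± 0.127 FPKM in WT libraries (SD, n = 3 each). Both counts are uncertain, since the copy Gm10232 held 11.7% as many counts as U2af1, and Gm49396, which overlaps U2af1l4, held 162% as many. Ncbp1, the large subunit of the cap-binding complex, had a log2 change of -0.17, and Xpa overlaps it with 14.1% as many counts.

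The hnRNP genes had a median of -0.12 over 8 genes. Hnrnpc, which binds uridine runs, had 21.9, 22.9 and 22.7 FPKM in S100a16+/- libraries, against 26.0, 26.5 and 27.4 FPKM in WT libraries, with a log2 change of -0.19 (edgeR adjusted p = 0.110). Rbmx, an X-linked RNA-binding protein gene, was at -0.33 on the log2 scale (edgeR adjusted p = 0.104). Hnrnpa1, a splicing repressor, had 72.8, 72.4 and 54.0 FPKM in S100a16+/- libraries, against 87.3, 86.5 and 93.8 FPKM in WT libraries. Replicate 3 lay far below replicates 1 and 2, and the fitted value was -0.37 on the log2 scale (edgeR adjusted p = 0.195). Pcbp1, the poly(C)-binding protein gene, had 126, 126 and 105 FPKM in S100a16+/- libraries, against 121, 121 and 124 FPKM in WT libraries, so replicate 3 was below WT and the other S100a16+/- libraries above it. Pqbp1, a polyglutamine-binding splicing factor gene, and Gm16286 had log2 changes of -0.13 and -0.10.

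Without S100a16+/- replicate 3, with 2 S100a16+/- libraries against 3 WT libraries, edgeR called 19 spliceosome genes lower and 6 higher. The falls are 15.6% of the 122 genes, close to the 16.4% of all genes tested called lower, and the rises are 4.92%, against 15.8%. A lower call was therefore about as frequent among these genes as among all genes tested. The SR genes called over the 6 libraries were called again, with log2 changes of -0.73 for Srsf5, -0.36 for Srsf2, -0.35 for Srsf6 and -0.35 for Srsf3. Srsf4 joined them at -0.53 (edgeR adjusted p = 0.0342). Outside the SR family, Snrpf fell by 0.36 on the log2 scale, Rbmx by 0.32, Snrpd1 by 0.25 and Alyref by 0.25. A further 9 falls lay between -0.24 and -0.18. The 6 rises were in Prpf31 (0.34), Sf3b4, a U2 protein near the branch point (0.27), Ncbp2, the small cap-binding subunit (0.27), Plrg1 of the Prp19 complex (0.25), the tri-snRNP gene Snrnp27 (0.25) and Dhx38 (0.17).

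Replicate 3 shared the falls of the SR genes but not all the other changes. Prpf31 had 12.8, 13.2 and 9.91 FPKM in S100a16+/- libraries, against 10.5, 10.9 and 10.8 FPKM in WT libraries. Sf3b4 had 33.0, 33.0 and 24.7 FPKM in S100a16+/- libraries, against 28.1, 28.8 and 28.8 FPKM in WT libraries. In both, replicates 1 and 2 were above all WT libraries and replicate 3 below all of them. The same held for Ncbp2, Snu13, Snrnp27 and Pcbp1, 6 genes in all. The reverse, with replicates 1 and 2 below and replicate 3 above, held for Thoc1, Bud31, Crnkl1, Slu7 and Sf3b3.

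**Figure D3:**
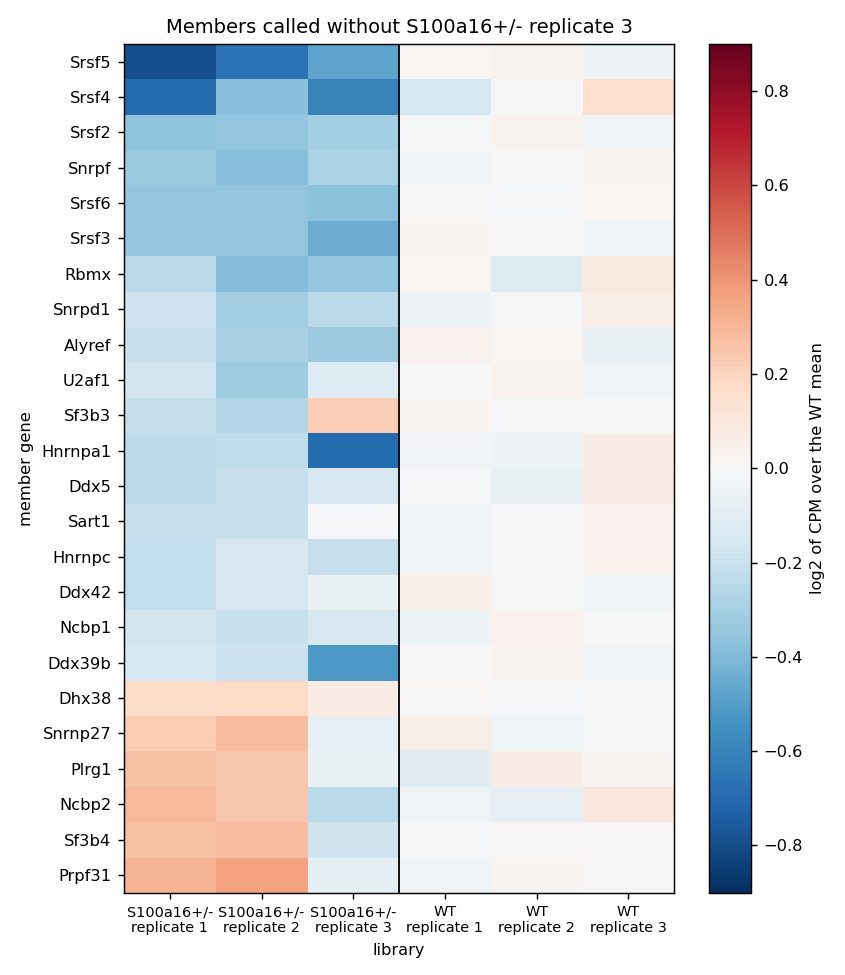
Log2 ratio of TMM-scaled CPM to the WT mean for 24 of the 25 genes called without S100a16+/- replicate 3, one row a gene and one column a library, with S100a16+/- left of the black line and WT right of it. The SR rows are blue in all 3 S100a16+/- columns, while the rows of Sf3b3, Prpf31, Sf3b4 and Ncbp2 change colour between replicate 3 and replicates 1 and 2.

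Marker lists of other cells and of cycling cells differed between the same libraries. Of 18 cell-cycle genes, 6 fell over the 6 libraries and 12 without replicate 3 by edgeR, and their summed FPKM was 169 to 178 in S100a16+/- libraries and 200.3 to 241 in WT libraries, without overlap. Mcm7, a subunit of the replicative helicase, had 8.71, 8.10 and 9.20 FPKM in S100a16+/- libraries, against 12.6, 14.1 and 14.6 FPKM in WT libraries. Pcna, the most abundant of the 18, had 64.8, 62.9 and 52.6 FPKM in S100a16+/- libraries, against 49.0, 60.2 and 60.1 FPKM in WT libraries. These overlap, and its log2 change of 0.14 was the highest of the 18, of which 17 were below 0. The next most abundant, Mcm3, also overlapped, at a log2 change of -0.19 (edgeR adjusted p = 0.391). Of 15 macrophage genes 5 rose over the 6 libraries, while 8 rose and 4 fell without replicate 3 by edgeR, and their summed FPKM was 13330 to 18342 in S100a16+/- libraries and 10439 to 10998 in WT libraries. The summed endothelial FPKM was 883 to 2035 in S100a16+/- libraries and 1677 to 1838 in WT libraries, the hepatocyte sum 9.37 to 490 and 71.2 to 108, and the stellate and myofibroblast sum 173 to 1216 and 1018 to 1141, each with replicate 3 apart from replicates 1 and 2. Without replicate 3, edgeR called 9 of 11 endothelial and 6 of 7 hepatocyte genes lower, and 4 of 10 stellate genes higher with 1 lower, against 0 in all 3 lists over the 6 libraries. Of all genes tested, edgeR called 1.61% lower and 2.85% higher over the 6 libraries, and 16.4% lower and 15.8% higher without replicate 3. No marker in these sums was at 0 in any library. Their part in the lower SR levels was not tested.

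RNA-processing genes outside the pathway annotation were read beside the spliceosome genes, against the same shares of all genes tested. These were 1.61% lower and 2.85% higher over the 6 libraries, and 16.4% lower and 15.8% higher without replicate 3. Of 36 regulators of alternative splicing 1 fell, Khdrbs1, the gene of the signal-responsive RNA-binding protein Sam68. Its FPKM was 12.5, 13.0 and 13.3 in S100a16+/- libraries, against 17.3, 16.9 and 16.6 in WT libraries, and the log2 change was -0.34 with an SE of 0.05 (edgeR adjusted p = 0.0317). Without replicate 3, 14 of the 36 fell and 2 rose. Of 10 nonsense-mediated decay genes 1 fell, the endonuclease gene Smg6. It had 3.65, 3.36 and 3.79 FPKM in S100a16+/- libraries, against 5.10, 5.12 and 4.73 FPKM in WT libraries, and a log2 change of -0.42 (edgeR adjusted p = 0.0402). Without replicate 3, 1 of the 10 fell and 2 rose. The calls of Khdrbs1 and Smg6 were lost in edgeR when any one of the other 5 libraries was left out.

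The remaining lists held 0 calls by edgeR over the 6 libraries. These were 10 minor spliceosome genes, 8 SR protein kinases, 15 genes of snRNP assembly and 17 of 3′ end processing. Of these, 0, 1, 1 and 4 had an unadjusted p under 0.05, where 9.54% of all genes tested were lower and 12.4% higher. The gene with the smallest p in each list was Rnpc3 (log2 change -0.21), Clk4 (-0.23), Phax (-0.20) and Nudt21 (-0.35). Without replicate 3, edgeR called 0 genes of the minor spliceosome and of snRNP assembly, 1 kinase lower, and 3 genes of 3′ end processing lower with 1 higher. Clk4, a kinase that phosphorylates SR proteins, had 4.13, 4.35 and 5.16 FPKM in S100a16+/- libraries, against 5.63, 5.46 and 5.51 FPKM in WT libraries, and was called without replicate 3 (log2 change -0.32, edgeR adjusted p = 0.012). Nudt21, a cleavage factor subunit, had 6.64, 6.93 and 6.22 FPKM in S100a16+/- libraries, against 8.69, 8.38 and 9.15 FPKM in WT libraries (edgeR adjusted p = 0.0688). The median log2 changes were 0.04 for the minor spliceosome, which was -0.017 with library totals in place of TMM and -0.013 in limma on log2(FPKM + 1), -0.03 for the kinases, 0.07 for snRNP assembly and -0.04 for 3′ end processing.

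**Figure D4:**
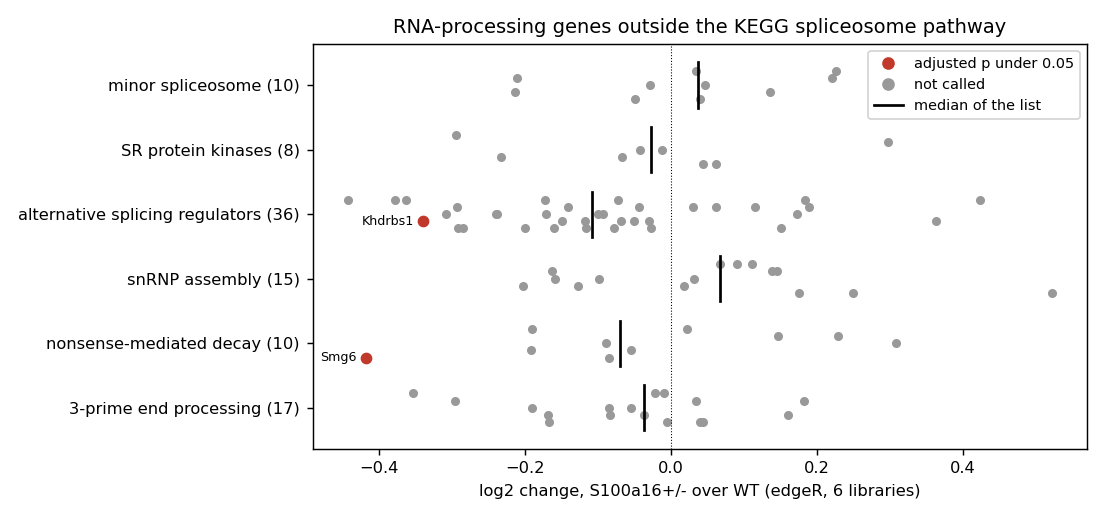
Log2 change, S100a16+/- over WT, of RNA-processing genes outside the pathway annotation, by list, with the number of genes tested in parentheses and a black bar at each median. Khdrbs1 and Smg6 are the called genes, both below 0, and the median of the alternative splicing regulators is -0.11.

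A wider set, the 152 genes tested that carry a Gene Ontology term for RNA splicing and are not in the pathway, held 2 rises and 1 fall by edgeR. Of all genes tested, 2.85% rose and 1.61% fell. The term set and the genes named from it were chosen after their values were seen. Cwc22, which loads the exon junction complex, had 3.39, 3.32 and 3.47 FPKM in S100a16+/- libraries, against 4.90, 4.69 and 4.87 FPKM in WT libraries, with a log2 change of -0.45 (edgeR adjusted p = 0.0248). Usb1, the U6 3′ end exonuclease gene, had 11.3, 10.7 and 10.8 FPKM in S100a16+/- libraries, against 8.24, 7.32 and 7.13 FPKM in WT libraries, with a log2 change of 0.58 (edgeR adjusted p = 0.0285). Mettl3, the m6A methyltransferase gene, rose by 0.50 on the log2 scale (edgeR adjusted p = 0.0497). Without replicate 3 the 152 genes held 5 rises and 22 falls, where 15.8% of all genes tested rose and 16.4% fell. In neither fit were calls more frequent among the 152 genes than among all genes tested.

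The FPKM minimum left the following genes on either side. The lowest inside it were Ppih (1.80, 1.07 and 1.02 FPKM in S100a16+/- libraries, 1.04, 1.78 and 2.44 FPKM in WT libraries), Txnl4a and Alyref2. Ppih, a cyclophilin of the tri-snRNP, held 26.3% of the counts of itself and its 7 copies. Txnl4a, a U5 gene at 1.19 to 1.49 FPKM in S100a16+/- libraries and 1.58 to 1.60 FPKM in WT libraries, overlaps the far more abundant Gm16286 on the same strand. Outside the minimum were Hnrnpa3, Hnrnpa1l2-ps2, Eif4a3l1, and Rbmxl2 and Gm4340, both with a count of 0 in every library. Hnrnpa3, an hnRNP gene, had 0.419, 0.421 and 0.563 FPKM in S100a16+/- libraries, against 8.46, 0.458 and 9.72 FPKM in WT libraries. It reached 1 FPKM only in WT replicates 1 and 3, and its own counts were 7.45% of those of itself and its 27 near-identical copies. Summed with the copies it had 232, 236 and 208 CPM in S100a16+/- libraries, against 309, 279 and 339 CPM in WT libraries. These CPM were scaled by library totals without TMM. The groups of that sum did not overlap, while the gene's own values differed by a factor of over 10 between WT libraries. In FPKM, also scaled by library size, 18.9% of all genes tested were lower without overlap. Genes with a near-identical stretch held at least 10% as many counts for 11 of the 122 genes, and overlapping genes for 16. For Acin1, Hnrnpm, Sf3a2, Snw1, Srsf4, Thoc1 and U2af1l4 the stretch lay in an overlapping neighbour, so they are in both counts. The split of reads between such genes could not be checked from the table.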

How the data were processed

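The authors deposited 1 table of counts and FPKM values per gene, per the file headers. Deposited counts were whole numbers without scaling between libraries. In the deposited FPKM values, gene length and library size are divided out, and 0.0001 stands where the count is 0. Per the labels' protocols, the libraries were poly(A)-selected, made by the dUTP method, with unique molecular identifiers. The submitters' processing notes list edgeR, DESeq2, StringTie 1.3.4d, HISAT2 2.0.4, UMI-tools and cutadapt 1.9. The role of each, the genome build, the strand setting and any collapsing of identifiers are not given in the sources here. Coordinates are as in the table, and all 122 genes were in GENCODE M21 (GRCm38), 107 with the same coordinates.

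Genes at 1 FPKM or more in 3 of 6 libraries or more were tested by edgeR 4.0.16 quasi-likelihood (R 4.3.3) on TMM-scaled counts, with a genotype term alone and p-values adjusted over all of them (Benjamini-Hochberg). The test was also run on simulated counts with planted changes. These held no outlying library, so that run cannot show how the test behaves with a library such as S100a16+/- replicate 3. An SE is the absolute log2 change over the square root of F. Totals of 61979103 to 76291481 counts set the counting error, which is part of the spread between libraries. Alternatives used limma 3.58.1 on log2(FPKM + 1), DESeq2 1.42.0, other scalings and filters, the replicate number as a block and each library left out. The count of genes whose groups do not overlap was added after the data were seen.

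Members, roles and gene lists were chosen with earlier results of these data known, and Pqbp1, Rp9 and Gm16286 were given a role after the files were read. Named genes were, for each role, up to 4 called genes or the 2 with the smallest p, the 6 most abundant genes, the 3 lowest inside and nearest outside the minimum, and 5 paralog pairs. They also included up to 10 called genes in each direction without replicate 3, and for other lists up to 3 called genes or the 1 with the smallest p. Others were named after their values were seen, and 1 gene that the rule names is not reported here. Copies were transcripts of other genes, overlapping ones included, with at least 95% identity over at least 300 bases by blastn 2.17.0 against GENCODE M21. Promoters are RefSeq windows.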

Additional observations from a re-analysis of the deposited data

How the results depend on the processing

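Against 4 genes called lower by edgeR over 6 libraries, DESeq2 called 12, a fit with no filter on low values 1 and the replicate block 0, where the block called 0 of all genes. Of all genes, edgeR, DESeq2 and the fit with no filter called 1.61%, 5.98% and 0.286% lower. Counting genes whose FPKM groups do not overlap, added after the data were seen, gave 51 lower and 1 higher. The shares of all genes tested were 18.9% and 12.5%. Leaving out 1 library gave 0 to 19 lower and 0 to 6 higher, with all calls from the fit without S100a16+/- replicate 3. That fit called 16.4% of all genes lower and 15.8% higher. The others called 0.0783% to 0.180% of all genes lower and 0.172% to 0.446% higher. The median log2 change of -0.07 was -0.13 with library totals in place of TMM, -0.12 in limma on log2(FPKM + 1) and -0.13 on log2(FPKM + 0.1), with the median of all genes moved by -0.05, -0.05 and -0.06. Without replicate 3, the 19 lower and 6 higher calls became 31 and 2 with library totals, 7 and 1 with the replicate block, and 28 and 3 in limma. Of all 12766 genes these fits called 2721 lower and 1593 higher, 1281 and 1176, and 2559 and 1582. Leaving out a WT library as well gave 10 to 14 lower and 2 to 4 higher. Of all 12766 genes, these last fits called 1667 to 1787 lower and 1561 to 1733 higher. In each of them, lower and higher calls were both less frequent among the 122 genes than among all genes tested. Deviations of same-numbered libraries from their group means correlated at -0.14, 0.04 and -0.05. With 3 libraries a group, these values cannot show whether same-numbered libraries were prepared together.

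Of the 122 log2 changes, 40 turned sign in at least 1 of 14 other fits, and 0 of these 40 genes were called over the 6 libraries. Among the genes named by the rule, 5 turned sign. Snrpc (0.04) was -0.0151 with library totals, -0.0117 in limma with a pseudocount of 1, -0.0147 with 0.1, -0.00606 with 5, and -0.0111 to 0.133 with a library left out. In the same order, Snrpb (0.02) was -0.0323, -0.0319, -0.0326, -0.0292, and -0.0498 to 0.112. Pcbp1 (0.01) was -0.0423, -0.0428, -0.0432, -0.0413, and -0.0383 to 0.108. U2af1l4 (0.02) was -0.0377, -0.0323, -0.0448, -0.0143, and -0.0795 to 0.0953. Magohb (0.06) turned sign with a library left out, at -0.0637 to 0.163. The cause was not tested. Among the other values of named genes under an alternative, 620 kept their direction and side of the threshold, 36 came to be called and 48 lost a call.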
